A study of Mus musculus with 5 samples.

Results

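The genes of the heterotrimeric G proteins and of the regulators of G protein signaling (RGS) were followed across the 14 cell types annotated in mouse lumbar dorsal root ganglion (DRG). Members were the rows of the count matrix whose symbol names a G protein α (Gna), β (Gnb) or γ (Gng, Gngt) subunit or a numbered Rgs gene. This choice used symbols and no measured value, and gave 49 of 17271 rows, of which 15 encode α subunits, 5 β subunits, 11 γ subunits and 18 RGS proteins. Gnat3, Gngt1, Rgs13, Rgs18 and Rgs21 were not analysed here.

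A receptor coupled to G proteins acts by loading the α subunit with GTP, after which α and the βγ dimer part and each acts on its own targets. The α subunits fall into families, of which Gs (Gnas and Gnal) raises cyclic AMP, Gi/o lowers it, and Gq (Gnaq, Gna11, Gna14, Gna15) activates phospholipase C-β. RGS proteins speed the hydrolysis of GTP by α subunits, mostly of the Gi/o and Gq families, and so end the signal, and they are grouped by structure into the RZ, R4, R7 and R12 families. In sensory neurons, receptors for itch agents, opioids, prostaglandins and bradykinin signal through these proteins.

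The DRG cells came from 5 wild type, untreated C57BL/6 mice aged 18 weeks, 3 males and 2 females, and were sequenced as 5 libraries of droplets with the 10x Genomics 3′ kit to serve as a reference of closely related cell types. The files held 3352 cells, 3047 of them in 12 neuron types: neurofilament neurons (NF), non-peptidergic neurons (NP), peptidergic neurons (PEP) and neurons with tyrosine hydroxylase (Th), with marker genes in each name. The other two types were satellite glia (249 cells) and endothelial cells (56 cells). All libraries belong to 1 group, so every comparison is between cell types, and all types of a library share its mouse. The libraries, numbered here in the alphabetical order of their identifiers, held 164 to 1370 cells and 13050389 to 88886975 unique molecular identifiers (UMIs), with a median of 52499.5 to 72840 UMIs per cell, and no identifier was tied to a sample label or a sex. Ganglia were dissociated with enzymes before capture, so the values describe cells that came through that step.

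UMIs were summed over the cells of a type in a library and divided by the total of that sum, to give CPM (counts scaled to the same total in every sum), and each value below is the mean of 5 such sums ± SD unless stated. Because 1 UMI marks 1 captured transcript at its 3′ end, levels were not divided by gene length. Library 1 held few cells of some types, with 3 of NF2_Ntrk2.Necab2, 4 of NP_Mrgpra3, 4 of PEP1_Dcn and 3 endothelial cells. Of 3345 distinct barcodes, 7 occurred in more than 1 library. The genes in the name of each neuron type were highest in that type in 12 of 12 types. The authors defined the types by marker genes from these same counts, so this is no check of the labels. The summed level of 5 neuron markers was 5480 to 10065 CPM in neuron types, against 443 CPM in satellite glia and 489 CPM in endothelial cells. The 6 satellite glia markers summed to 90189 CPM in satellite glia, and also to 4519 CPM (551 to 14210 over libraries) in endothelial cells, in which Cdh19 was at 0.

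By the median of each class, RGS and γ genes ranged more widely between neuron types than α and β genes, and most α, β and γ UMIs came from a few genes found in every neuron type. Of the 49 members, 41 passed the filter on low counts in the fit of the 12 neuron types: 11 α, 5 β, 9 γ and 16 RGS. A gene was called when the edgeR quasi-likelihood test gave a Benjamini-Hochberg adjusted p under 0.01 and the difference was at least 2-fold. Over the 12 types 80.4% of the 11561 genes tested were called, and 38 of the 41 members were. The median difference between the highest and the lowest fitted type was 4.77 on the log2 scale for the tested members and 1.78 for all genes tested. That median was 6.29 for RGS (16 of 16 called), 5.20 for γ (8 of 9), 2.56 for α (10 of 11) and 2.26 for β (4 of 5). The members that were not called, Gng3, Gnb5 and Gnas, missed the 2-fold limit, with 0.72, 0.97 and 0.99 between the highest and the lowest type. The annotated types were built by clustering these same counts, so all tests between types describe the size of differences.

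**Figure D1:**
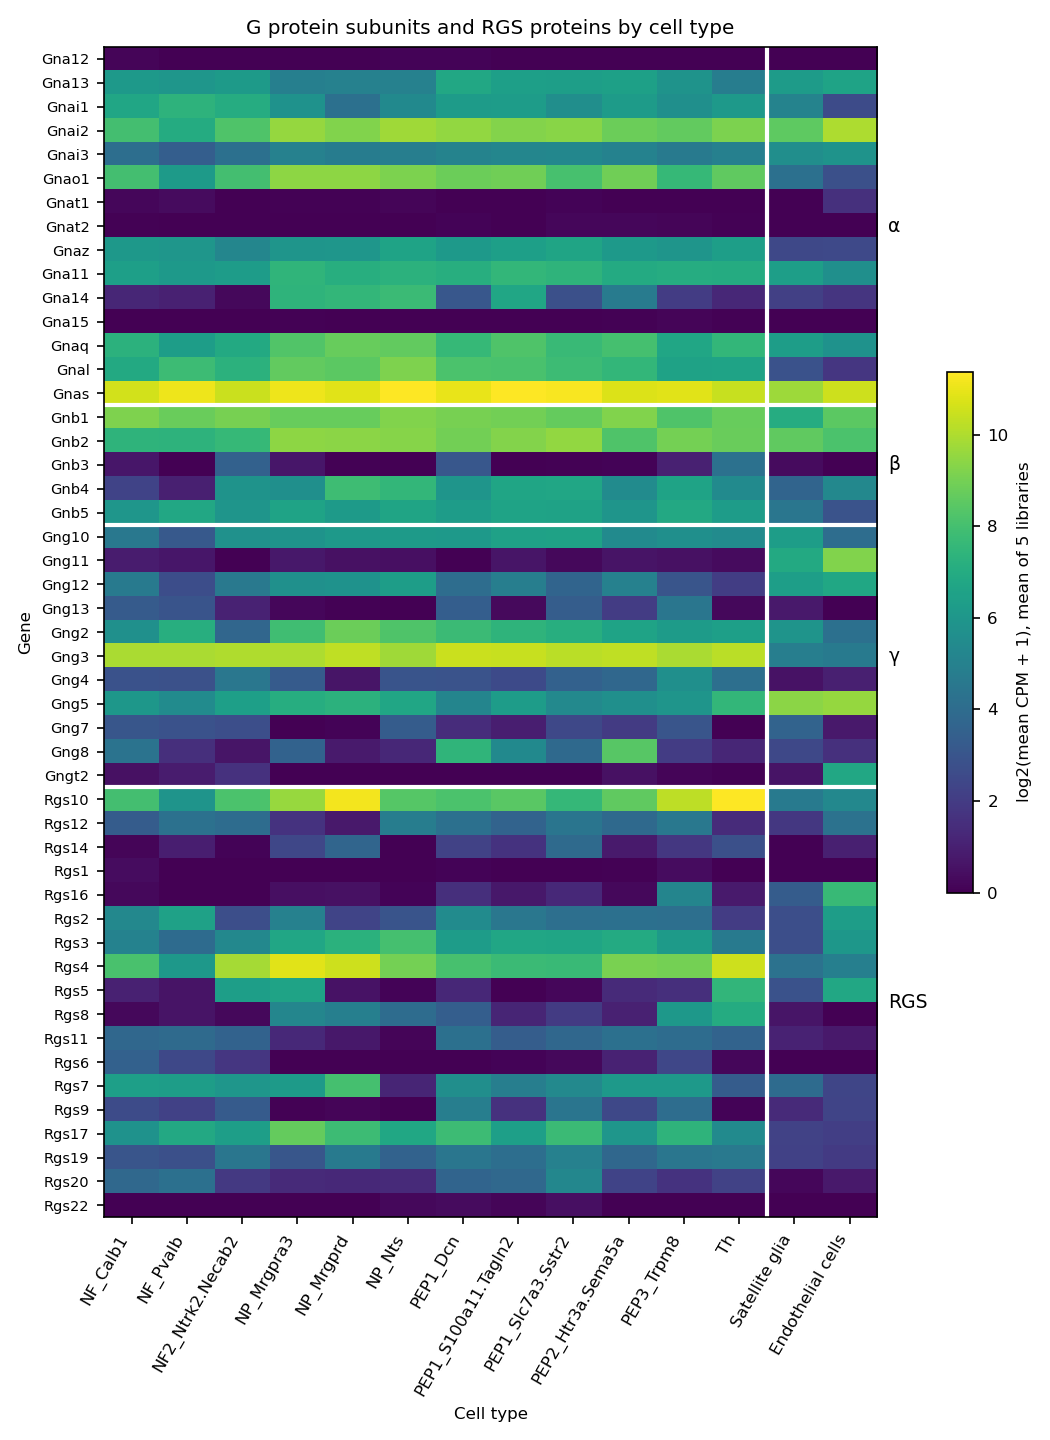
Levels of the 49 members (rows, by class) in the 14 cell types (columns), as log2(mean CPM + 1) over 5 libraries. Gnas and Gng3 were high across the 12 neuron types (left of the white line), whereas Rgs10, Rgs4, Rgs5, Gna14 and Gng8 changed from type to type. Gng11 and Gng5 were highest in the non-neuronal types at the right.

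Each neuron type was next set against the unweighted mean, on the log2 scale, of the other 11. The percent of all genes given for each type counts both directions. NF_Pvalb, the type of proprioceptors by its marker parvalbumin, had 9 members higher and 15 lower, against 25.9% of all genes. The members numbered 14 higher and 8 lower in NP_Mrgprd (20.1% of all genes), where DESeq2 called 14 higher and 13 lower. Over all genes, DESeq2 called 885 higher and 1894 lower there, against 944 and 1378 with edgeR. NF_Calb1 had 9 higher and 12 lower (23.9% of all genes), and Th had 8 higher and 11 lower (18% of all genes). In NP_Mrgpra3, 13 members were higher and 5 lower (15.8% of all genes), and in NP_Nts 10 were higher and 8 lower (21.1% of all genes). NF2_Ntrk2.Necab2 had 8 higher and 7 lower (18.5% of all genes), and PEP3_Trpm8 11 higher and 4 lower (17.9% of all genes). PEP1_Dcn had 12 higher and 1 lower (13.8% of all genes), and PEP1_Slc7a3.Sstr2 11 higher and 2 lower (16.1% of all genes). In PEP2_Htr3a.Sema5a, 5 members were higher and 2 lower, against 15.6% of all genes, so their share was close to that background. PEP1_S100a11.Tagln2 had 4 higher and 3 lower, against 11.9% of all genes. Of all genes called, the share higher in the type was 40.7% in NP_Mrgprd, 43.2% in NP_Nts, 47.9% in NP_Mrgpra3 and 51.5% in Th. It was 56.7% in NF_Pvalb, 57.3% in NF2_Ntrk2.Necab2, 61.2% in PEP3_Trpm8 and 65.3% in PEP1_Slc7a3.Sstr2. The share reached 69.1% in NF_Calb1, 72.3% in PEP1_S100a11.Tagln2 and 81.4% in both PEP1_Dcn and PEP2_Htr3a.Sema5a.

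NF_Pvalb was also the neuron type in which the most members had their lowest level, 12 of 41, among them Gnai2, Gnao1, Gnaq, Gna11, Gnb2, Gnb4, Rgs4, Rgs10 and Rgs3. NP_Nts held the highest neuron level of 8 members and PEP1_Slc7a3.Sstr2 of 7. The matching counts over all genes are not given here, so these numbers are not set against a background. The difference between a type and the other types was taken against a mean of logs, so that a gene near 0 in most types can be called higher in a type whose CPM lies under the arithmetic mean of the others. Rgs8 in NP_Nts was such a case, called at a log2 fold change of 1.75 while below the arithmetic mean in all 5 libraries. The genes described with full statistics below moved the same way in 5 of 5 libraries by the arithmetic mean too.

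Among the α subunits, Gnas, the widely expressed stimulatory subunit, gave the largest share of α UMIs in every one of the 14 types. Its share averaged 53.2% ± 2.56 over the 12 neuron types, and its level ran from 1388 ± 178 CPM in Th to 2633 ± 278 CPM in PEP1_S100a11.Tagln2. Gnas, Gnai2, Gnao1, Gnal and Gnaq together made up 87.0% to 89.9% of the α UMIs in each neuron type. The 4 members Gna12, Gna15, Gnat1 and Gnat2 had 6 to 12 UMIs each in all cells and get no further value. Exons of Gnas, Gnao1 and Gnal overlap genes on the opposite strand in the annotation, and whether the counting used strand is not given in the sources used here. Counts were per gene, so different transcripts of Gnas were not told apart. All Gnas UMIs were counted as α and as Gs here, whichever transcript they came from.

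The balance of the α families stood apart in NF_Pvalb. Members of Gs took 78.8% ± 1.08 of its α UMIs, against 50.5% (Th) to 65.4% (PEP3_Trpm8) in the other neuron types. Members of Gi/o took 14.2% ± 1.0, against 24.7% (PEP3_Trpm8) to 37.9% (Th) elsewhere among neurons. These groups did not overlap in their means, but the shares of a type sum to 100%, so a high share of Gs alone lowers the others. On the CPM scale the Gi/o gene Gnao1, the most abundant α subunit of brain membranes, was at 84.4, 66.2, 69.7, 75.4 and 61.5 CPM in libraries 1 to 5 of NF_Pvalb. In NP_Mrgpra3, the type with its highest level, it was at 672, 820, 576, 746 and 688 CPM, so all libraries of both types stood apart. Gnai2 showed the same order, with 127 ± 43.2 CPM in NF_Pvalb and 871 ± 94.7 CPM in NP_Nts. Against the other neuron types, NF_Pvalb was lower for Gna14 (log2 fold change −3.51), Gnao1 (−2.53), Gnai2 (−2.06), Gnaq (−1.52) and Gnai3 (−1.45).

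Gnai1, which encodes another inhibitory subunit, went the other way. It was at 138, 171, 170, 171 and 168 CPM in NF_Pvalb (log2 fold change 1.40) and at 18.1, 17.0, 18.2, 16.3 and 17.1 CPM in NP_Mrgprd (−1.99). NF2_Ntrk2.Necab2 followed with 140, 114, 159, 129 and 120 CPM, a log2 fold change of 1.08 ± 0.10 (SE; edgeR adjusted p = 5.72e-14). Gnai1 was thus highest in the neuron type in which Gnai2 was lowest.

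**Figure D2:**
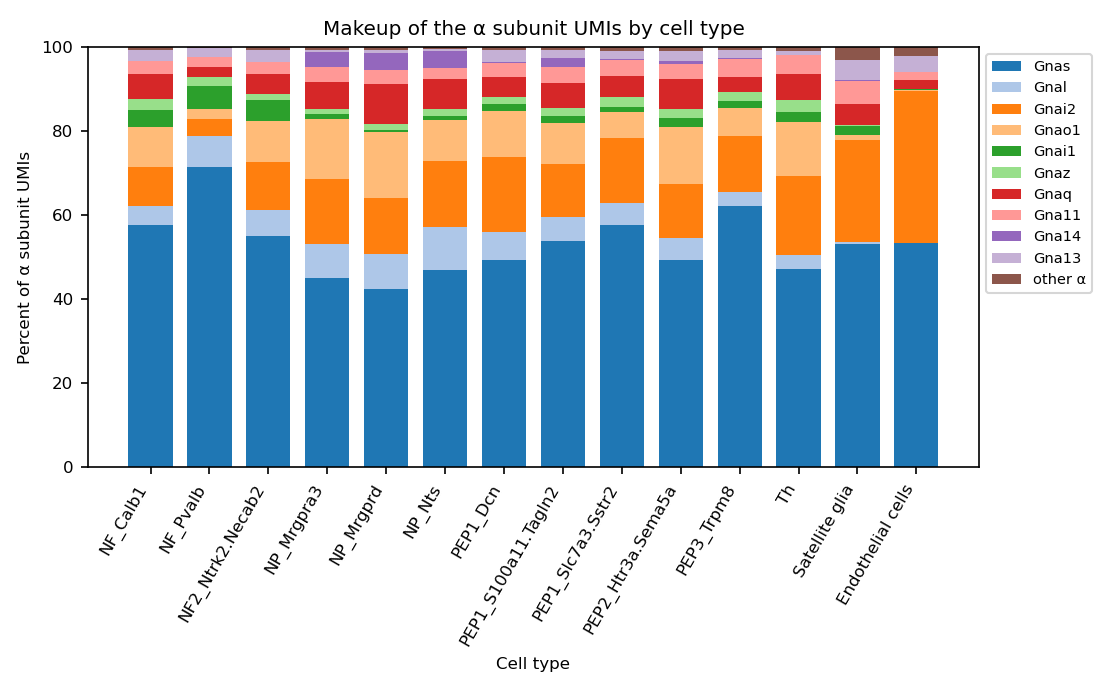
Share of the α subunit UMIs taken by each α gene in the 14 cell types, as the mean percent of 5 libraries. Gnas led in every type, with 71.5% in NF_Pvalb and 42.3% in NP_Mrgprd, and Gna14 formed a visible band in the NP types and in PEP1_S100a11.Tagln2.

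Gna14, a Gq family subunit, was high in the NP types and PEP1_S100a11.Tagln2 and close to 0 in most other types. It was at 215, 195, 199, 225 and 238 CPM in NP_Nts, at 185, 170, 164, 188 and 202 CPM in NP_Mrgprd, and at 159, 164, 173, 167 and 167 CPM in NP_Mrgpra3. Only PEP1_S100a11.Tagln2, with 105, 88.6, 103, 115 and 110 CPM, came near them, and the libraries of the 3 NP types all lay above it. PEP2_Htr3a.Sema5a held 25.2 ± 4.79 CPM, and each of the remaining 9 types held 7.38 CPM or less. The log2 fold change was 4.65 ± 0.15 (SE) in NP_Nts (edgeR adjusted p = 1.06e-36), 4.51 ± 0.14 in NP_Mrgprd (edgeR adjusted p = 8.64e-37) and 4.35 ± 0.16 in NP_Mrgpra3 (edgeR adjusted p = 1.17e-32). PEP1_S100a11.Tagln2 was higher by 3.54 ± 0.17 (edgeR adjusted p = 3.61e-26). In single cells thinned to 10000 UMIs, a depth that every cell reached, 79.8% to 86.3% of the cells of the NP types and 64.1% of PEP1_S100a11.Tagln2 had a Gna14 UMI, against 3.21% of satellite glia. Without thinning, the shares were 99.0% to 99.8% in the NP types and 4.02% in satellite glia, whose median depth was 17729 UMIs per cell against 53136.5 to 105150 in the NP types.

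At the other end, Gna14 had 2 UMIs in NF2_Ntrk2.Necab2, both in library 5 (log2 fold change −5.29 ± 0.69, edgeR adjusted p = 2.39e-09). As a ratio of CPM this was 185 times below the mean of the other neuron types, with an exact Poisson 95% interval of 51.3 to 1529, which covers counting error only. Without library 5 this fold change was −8.29, and without library 4 it was −4.67. In PEP3_Trpm8 Gna14 was at 6.01, 0, 1.02, 7.18 and 1.24 CPM (log2 fold change −1.95 ± 0.48, edgeR adjusted p = 0.000574). That call was lost without library 5 (−1.29) and the fold change was −3.08 without library 4.

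The Gq gene Gnaq, by contrast, was present everywhere, from 79.0 ± 8.30 CPM in NF_Pvalb to 424 ± 26.8 CPM in NP_Mrgprd among neurons. Gnal, a stimulatory subunit first known from olfactory neurons, was at 586, 626, 570, 553 and 546 CPM in NP_Nts, above all libraries of NP_Mrgpra3, the next type (394 ± 80.0 CPM). It was at 92.7 ± 16.0 CPM in PEP3_Trpm8, its lowest neuron type. The Gq family reached its largest share of α UMIs, 17.0% ± 1.36, in NP_Mrgprd.

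Among the β subunits, Gnb1 and Gnb2 together gave 78.6% (NP_Mrgprd) to 91.8% (NF_Calb1) of the β UMIs of neuron types, but their balance shifted. Gnb1 took 70.9% of β UMIs in NF_Calb1 and 28.8% in PEP3_Trpm8, and Gnb2 took 20.8% and 50.3% in the same types. Gnb2 itself was at 168 ± 13.9 CPM in NF_Calb1 and 161 ± 17.2 CPM in NF_Pvalb, and reached 733 ± 58.0 CPM in PEP1_Slc7a3.Sstr2. Gnb2 shares exon sequence on its own strand with Epo and Mir6418 in the annotation.

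Gnb4 ranged more widely between neuron types than the other abundant β subunits. It was at 225, 215, 245, 222 and 228 CPM in NP_Mrgprd, where the log2 fold change was 2.67. In NP_Nts it was at 162, 158, 213, 204 and 192 CPM (2.25 ± 0.12, edgeR adjusted p = 1.21e-24), below every library of NP_Mrgprd. It was at 110, 100, 134, 81.9 and 88.8 CPM in PEP1_S100a11.Tagln2 (1.30 ± 0.14, edgeR adjusted p = 2.22e-11). NF_Pvalb stood at the other end, with 0 UMIs in libraries 1 to 3 and 3.74 and 1.22 CPM in libraries 4 and 5. Its log2 fold change was −5.55 ± 0.34 (edgeR adjusted p = 4.24e-22) on 10 UMIs, and −6.54 without library 4. NF_Calb1 was low too, at 3.82 ± 2.51 CPM.

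Gnb3, best known from cone photoreceptors and taste cells, was found in few types and at low level. It was at 24.1, 10.9, 32.4, 12.5 and 10.1 CPM in Th, a log2 fold change of 5.88 ± 0.33 (edgeR adjusted p = 3.18e-21). NF2_Ntrk2.Necab2 (10.4 ± 9.17 CPM) and PEP1_Dcn (7.48 ± 3.96 CPM) followed, with libraries that overlapped those of Th. Gnb5, the partner without which R7 RGS proteins are unstable, ranged only from 60.9 CPM (PEP2_Htr3a.Sema5a) to 115 CPM (PEP3_Trpm8).

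Among the γ subunits, Gng3, a neuronal γ subunit, took 74.0% ± 1.86 of the γ UMIs over the neuron types, at 868 CPM in NP_Nts to 1435 CPM in PEP1_Dcn. It was at 28.1 ± 12.1 CPM in satellite glia and 24.2 ± 20.4 CPM in endothelial cells. Exons of Gng3 overlap Bscl2 on the opposite strand.

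Several of the remaining γ genes were high in 1 or a few types. Gng8 was at 558, 339, 242, 342 and 225 CPM in PEP2_Htr3a.Sema5a, with a log2 fold change of 5.84 ± 0.16 (SE; edgeR adjusted p = 5.84e-40). In PEP1_Dcn it was at 274, 191, 212, 84.8 and 101 CPM (4.70 ± 0.19, edgeR adjusted p = 6.08e-31), a range that overlapped the first type, and PEP1_S100a11.Tagln2 held 41.6 ± 18.3 CPM. Gng2 was at 421, 480, 394, 486 and 471 CPM in NP_Mrgprd (log2 fold change 2.20), above every library of any other type, and at 12.4 ± 5.31 CPM in NF2_Ntrk2.Necab2. The summed γ level varied less than these genes, its highest neuron type exceeding its lowest 1.69-fold.

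PEP3_Trpm8, the cold-sensing neurons by their marker Trpm8, had the highest mean levels of Gng13 and Gng4. Gng13, known from taste and bipolar cells, was at 12, 33.7, 12.2, 24.3 and 24.7 CPM there (log2 fold change 4.45 ± 0.42, edgeR adjusted p = 1.73e-13), a range that overlapped those of PEP1_Dcn and NF_Calb1. Gng4 was at 51.1, 39.6, 43.8, 61.9 and 48.8 CPM, and the next type, NF2_Ntrk2.Necab2, was at 17.9, 16.2, 27.6, 26.4 and 22.2 CPM (1.54 ± 0.24, edgeR adjusted p = 1.79e-07). In NP_Mrgprd Gng4 nearly vanished, with 47 UMIs in 900 cells (log2 fold change −4.19 ± 0.28, edgeR adjusted p = 3.10e-20). Gng5 was low in PEP1_Dcn, at 34.2, 31.2, 25.4, 47.3 and 37.9 CPM (−1.22 ± 0.17, edgeR adjusted p = 8.26e-09), and highest among neurons in Th (187 ± 23.0 CPM). Gng7 was highest among neurons in NP_Nts (9.02 ± 2.61 CPM, log2 fold change 3.10), followed by NF_Calb1 with 7.28 ± 2.08 CPM (2.54 ± 0.26, edgeR adjusted p = 2.52e-12). It had 0 UMIs in Th and in NP_Mrgpra3, which allows up to 0.216 and 0.314 CPM.

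Of the 4 classes, the RGS genes varied most between neuron types in their summed level. Their summed level was 4565 ± 268 CPM in Th, 4466 ± 242 CPM in NP_Mrgprd and 3410 ± 188 CPM in NP_Mrgpra3. PEP3_Trpm8 followed with 2228 ± 280 CPM, the other neuron types lay lower, and NF_Pvalb was lowest with 489 ± 84.3 CPM. The highest neuron type thus exceeded the lowest 9.33-fold for RGS, against 2.16-fold for α, 2.15-fold for β and 1.69-fold for γ. Set against the α UMIs of the same sums, RGS UMIs stood at a ratio of 1.55 ± 0.057 in Th, 1.02 ± 0.117 in NP_Mrgprd and 0.160 ± 0.022 in NF_Pvalb. NF2_Ntrk2.Necab2 had 1532 ± 475 CPM, from 745 CPM in library 1, which rests on 3 cells, to 1842 CPM in library 5.

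Rgs10 and Rgs4 carried most of these sums, 90.5% ± 1.51 of the RGS UMIs in Th and 84.0% ± 1.03 in NP_Mrgprd, but 25.4% ± 6.04 in NF_Pvalb. Rgs10, a small RGS protein of the R12 family, was at 2744, 2681, 2137, 3024 and 2709 CPM in Th (log2 fold change 2.77) and at 2204, 2251, 2088, 2532 and 2418 CPM in NP_Mrgprd (2.71). The libraries of these types overlapped, and all lay above the 1204 ± 237 CPM of PEP3_Trpm8. Rgs10 was low in PEP1_Slc7a3.Sstr2, at 203, 190, 179, 200 and 190 CPM (−1.32 ± 0.17, edgeR adjusted p = 6.76e-10), and lowest in NF_Pvalb at 57.6 ± 17.8 CPM (−3.29).

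Rgs4, an R4 family protein that acts on Gi/o and Gq, was at 1784, 1735, 1798, 1875 and 2032 CPM in NP_Mrgpra3, above every library of every other type. Th (1474 ± 117 CPM) and NP_Mrgprd (1456 ± 105 CPM) came next and overlapped each other. NF2_Ntrk2.Necab2 was at 412 CPM in library 1 and at 910 to 1100 CPM in libraries 2 to 5. NF_Pvalb was at 46.0, 74.1, 32.7, 99.0 and 76.5 CPM, a log2 fold change of −3.09.

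**Figure D3:**
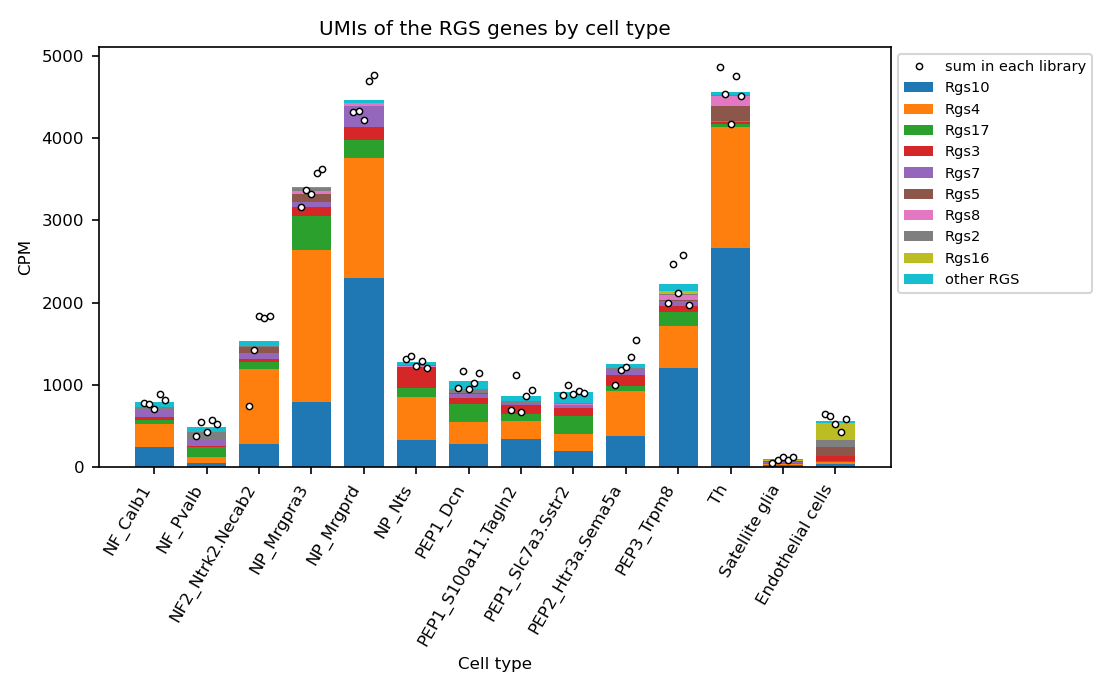
Summed level of the RGS genes by cell type in CPM, with coloured bars for the mean of each gene over 5 libraries and circles for the sum in each library. Th (4565 CPM), NP_Mrgprd (4466 CPM) and NP_Mrgpra3 (3410 CPM) were highest, through Rgs10 and Rgs4, and satellite glia lowest (98.2 CPM).

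Th neurons, the low-threshold C-fibre type, were high for Rgs5 and Rgs8 besides Rgs10 and Rgs4. Rgs5, an R4 family gene also used as a marker of pericytes, was at 217, 144, 251, 113 and 166 CPM in Th, a log2 fold change of 7.30 ± 0.23 (SE; edgeR adjusted p = 5.18e-35). It had a UMI in 222 of 232 Th cells and, at 10000 UMIs per cell, in 70.3% of them, against 0.111% of NP_Mrgprd cells. The depth of Th cells (median 56281 UMIs) was below that of NP_Mrgprd cells (105150), of which 3.67% had a UMI without thinning. The 6 mural cell markers summed to 0.633 CPM in Th and 4 of them were at 0 there. The 5 Schwann cell markers summed to 1743 CPM in Th (1483 to 2023 over libraries), the highest mean sum of any type. Satellite glia overlapped this, at 1520 CPM (1119 to 2079). The part of these markers in the Th results was not tested.

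Rgs5 was also found in NP_Mrgpra3 and NF2_Ntrk2.Necab2, with a wide spread between libraries. In NP_Mrgpra3 it was at 241, 61.3, 57.7, 77.7 and 46.6 CPM (log2 fold change 6.29 ± 0.29, edgeR adjusted p = 6.51e-27), where library 1 holds 4 cells. In NF2_Ntrk2.Necab2 it was at 0, 77.9, 148, 80.4 and 106 CPM, where library 1 holds 3 cells. The other 9 neuron types were at 1.91 CPM or less. PEP1_S100a11.Tagln2 had 0 UMIs in 181 cells, which allows up to 0.310 CPM, and so was at least 107-fold below the mean of the other neuron types. That mean was raised by Th, NP_Mrgpra3 and NF2_Ntrk2.Necab2. Other types were near 0 too, with a UMI in 3 of 400 NP_Nts cells and 3 of 342 PEP1_Slc7a3.Sstr2 cells. The fitted log2 fold change of PEP1_S100a11.Tagln2, −6.05 ± 1.86 (edgeR adjusted p = 0.00749), is no bound. The fold change stood at −6.02, −6.18, −5.94 and −5.80 without library 2, 3, 4 or 5 in turn, each time no longer called.

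Rgs8, a further R4 gene, was at 132, 128, 112, 149 and 118 CPM in Th (log2 fold change 4.95), above all libraries of PEP3_Trpm8 with 45.1, 76.3, 56.1, 74.6 and 74.8 CPM (3.96). NP_Mrgpra3 and NP_Mrgprd held 35.9 ± 18.4 and 29.2 ± 2.03 CPM. NF_Calb1 had 3 Rgs8 UMIs, 130.0 times below the mean of the other neuron types (counting interval 44.5 to 630.4; −4.96 ± 0.66, edgeR adjusted p = 1.78e-09), with fold changes of −5.80 without library 2 and −4.10, no longer called, without library 5. Rgs8 was as low in NF2_Ntrk2.Necab2 (0.167 CPM). In PEP2_Htr3a.Sema5a it was at 1.08 CPM (−2.14 ± 0.43, edgeR adjusted p = 2.29e-05), a call that was lost without library 5 (−2.06) and stood at −2.79 without library 2.

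Several RGS genes were low in Th. Rgs17, an RZ family protein, was at 42.3 ± 5.14 CPM in Th (log2 fold change −1.72) against 296, 479, 417, 447 and 441 CPM in NP_Mrgpra3 (2.05), its highest type. Rgs7 was at 8.94 ± 3.79 CPM in Th (−2.42), and Rgs2 at 3.02 ± 0.871 CPM (−2.65). Rgs9 had 1 UMI in Th, 112 times below the mean of the other neuron types (counting interval 20.2 to 4442; −4.57 ± 1.00, edgeR adjusted p = 9.60e-05), and that call was lost without library 4 (−6.12) and without library 5 (−4.04). NP_Nts was as low, with a Rgs9 UMI in 1 of 400 cells.

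Rgs16, an R4 gene, was high in a single neuron type. It was at 45.1, 26.4, 41.8, 29.8 and 30.9 CPM in PEP3_Trpm8 and at 1.90 CPM or less in every other neuron type, with a log2 fold change of 6.72 ± 0.33 (edgeR adjusted p = 2.39e-24). The 6 endothelial markers, of a type in which Rgs16 was also high, summed to 1.0 CPM in PEP3_Trpm8 with Kdr, Emcn and Tek at 0. Rgs16 has an exon overlap with a gene on the opposite strand, as has Rgs8.

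The R7 family genes, whose proteins work as complexes with Gβ5, were split between types. Rgs7 was at 245, 238, 262, 274 and 272 CPM in NP_Mrgprd (log2 fold change 2.99), above all libraries of every other type. In NP_Nts it was at 0, 2.85, 1.32, 0.553 and 1.44 CPM (−5.49), so these non-peptidergic types lay at opposite ends. Rgs9, the RGS protein of photoreceptors and striatum, was at 13.7, 41.1, 31.3, 25 and 31.1 CPM in PEP1_Dcn (4.36 ± 0.24, edgeR adjusted p = 1.29e-23) and at 19.2, 25.4, 18.6, 18.4 and 20.8 CPM in PEP1_Slc7a3.Sstr2 (3.74 ± 0.25, edgeR adjusted p = 2.40e-20). It had 1 UMI in NP_Mrgpra3, 77.2 times below the mean of the other neuron types (counting interval 13.8 to 3048; −4.04 ± 1.08, edgeR adjusted p = 0.00142), and this fold change was −5.71 without library 5 and −3.56, not called, without library 4. NP_Nts and Th were as low, with a UMI in 1 of 400 and 1 of 232 cells.

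Rgs11 had its highest neuron mean in PEP1_Dcn (17.3 CPM, 12.6 to 20.9 over libraries), overlapping PEP2_Htr3a.Sema5a and PEP3_Trpm8. It was at 17.8, 13.7, 22.6, 15.3 and 16.7 CPM in PEP2_Htr3a.Sema5a (1.58 ± 0.17, edgeR adjusted p = 1.62e-12), and had 2 UMIs in the 400 cells of NP_Nts, 120 times below the other neuron types (counting interval 33.2 to 990.7; −6.05 ± 0.45, edgeR adjusted p = 1.23e-18). Rgs6 was highest in NF_Calb1, at 5.73, 13.3, 14.2, 9.39 and 9.76 CPM (5.11 ± 0.32, edgeR adjusted p = 1.68e-20) and at 4.47 ± 2.48 CPM in NF_Pvalb (3.75 ± 0.48, edgeR adjusted p = 1.24e-09). PEP3_Trpm8 (4.37 ± 5.00 CPM) and NF2_Ntrk2.Necab2 (2.49 ± 1.28 CPM) overlapped NF_Pvalb. The whole R7 family made up 20.9% of RGS UMIs in NF_Pvalb and 0.109% in NP_Nts. These shares depend on the RGS sum, which was 489 CPM in NF_Pvalb. In NP_Mrgprd the R7 share was 5.81% of a sum of 4466 CPM, and Rgs7 alone was at 258 CPM.

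Other RGS genes were highest in types of their own. Rgs3 was at 260, 256, 275, 259 and 232 CPM in NP_Nts (log2 fold change 2.04), above all libraries of the next type, NP_Mrgprd (155 ± 12.6 CPM). Rgs2, which prefers Gq, was at 51.8, 102, 81.4, 106 and 108 CPM in NF_Pvalb (2.77 ± 0.16, edgeR adjusted p = 5.49e-24), and its libraries overlapped those of endothelial cells (80.4 ± 35 CPM). Rgs14 was at 13.3, 11.4, 13.5, 13.6 and 9.43 CPM in NP_Mrgprd (3.32 ± 0.17, edgeR adjusted p = 6.64e-26) and at 12.4, 12.7, 21.6, 14.1 and 11 CPM in PEP1_Slc7a3.Sstr2 (3.42 ± 0.21, edgeR adjusted p = 8.85e-22). PEP1_Slc7a3.Sstr2 was also highest among neuron types for the RZ genes Rgs20 (37.4 ± 6.42 CPM) and Rgs19 (31.4 ± 2.78 CPM). The RZ family took 30.8% ± 1.35 of the RGS UMIs of PEP1_Slc7a3.Sstr2, and also 28.5% ± 1.21 in NF_Pvalb and 24.0% ± 3.54 in PEP1_Dcn. Most RZ UMIs of PEP1_Slc7a3.Sstr2 were of Rgs17, with 8.31 per cell against 1.49 for Rgs20 and 1.27 for Rgs19. Gnaz, the α subunit on which RZ proteins act, had its highest mean in PEP1_Slc7a3.Sstr2 too (99.0 ± 5.78 CPM), but was not called in this type. Its libraries overlapped those of NP_Nts (95.2 CPM), and it spanned a 2.76-fold range over the neuron types. Rgs1 and Rgs22 had 7 and 16 UMIs in all cells.

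Neurons as a whole were then compared with satellite glia, with all neurons of a library summed (5 against 5 sums). The neuron sums weight each type by its UMIs. NP_Mrgprd weighs most, with 900 of the 3047 neurons and the highest median depth (105150 UMIs per cell). Here 32.6% of the 12109 genes tested were higher and 21.6% lower in neurons, and of the 40 members tested 25 were higher and 5 lower. The median log2 fold change was 2.00 over these members and 0.35 over all genes tested. The RGS sum was 98.2 ± 31.2 CPM in satellite glia, and its ratio to α was 0.0639 ± 0.022.

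Rgs10 (1298 CPM in neurons, 24.8 CPM in glia) and Rgs4 (947 and 18.7 CPM) were among the members most in favour of neurons, with log2 fold changes of 5.47 ± 0.25 (edgeR adjusted p = 1.28e-12) and 5.45 ± 0.20 (edgeR adjusted p = 8.54e-14). Neuron markers were themselves present in the glial sums, as given above, and their part in these glial levels was not tested. The neuron levels do not hold for each type: in NF_Pvalb, Rgs10 was at 57.6 CPM and Rgs4 at 65.7 CPM. Rgs14 had 0 UMIs in satellite glia, which makes it at least 9.85-fold higher in neurons with 3 UMIs over the group as the floor. NP_Mrgprd held 1033 of the 1416 Rgs14 UMIs of neurons. Rgs8 had 1 UMI in satellite glia, in library 5, and 26.4 CPM in neurons, a ratio of 121 (counting interval 21.7 to 4768), and its fitted log2 fold change of 6.70 ± 0.54 (edgeR adjusted p = 3.18e-09) was 11.81 without library 5 and 6.08 with DESeq2.

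On the glial side stood Gng11, a γ subunit that is farnesylated, with 113, 126, 108, 130 and 110 CPM in satellite glia and 0.403 ± 0.170 CPM in neurons (−8.29 ± 0.19, edgeR adjusted p = 4.90e-16). Gng5 was at 668 ± 46.1 CPM in glia and 113 ± 11.3 CPM in neurons (−2.73 ± 0.12, edgeR adjusted p = 7.36e-13), and took 63.6% of glial γ UMIs, where Gng3 took 2.67%. Rgs16 (−2.78 ± 0.41, edgeR adjusted p = 7.22e-06) and Gng7 (−2.33 ± 0.25, edgeR adjusted p = 1.13e-07) were lower in neurons too, at 1.44 and 2.68 CPM against 9.0 and 11.3 CPM. Gnai2, Gna11, Gnai1 and Gnb2 were not called, with log2 fold changes under 1.

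Against endothelial cells 43.9% of the 11683 genes tested were higher and 14.9% lower in neurons, and of 40 members tested 23 were higher and 6 lower. The median log2 fold change was 2.34 over these members and 1.25 over all genes, and with DESeq2 that of all genes was lower by 0.20. DESeq2 called 21 members higher and 8 lower in neurons. Over all genes it called 4427 higher and 1962 lower, against 5123 and 1739 with edgeR. This comparison shares its neuron sums with the one before. Gnao1 (508 CPM in neurons, 5.91 CPM in endothelial cells), Gnal (293 and 2.47 CPM) and Rgs17 (164 and 3.32 CPM) were higher in neurons, with log2 fold changes of 6.93 ± 0.38 (edgeR adjusted p = 4.17e-12), 6.88 ± 0.35 (edgeR adjusted p = 1.20e-12) and 6.04 ± 0.41 (edgeR adjusted p = 1.12e-10). These rest on 5, 3 and 3 UMIs in endothelial cells, with counting intervals of the ratio of 31.5 to 446 for Gnal and 17.6 to 249.9 for Rgs17, and single libraries moved them: without library 3 they were 7.85, 8.02 and 7.21, Gnao1 was 6.32 without library 2, and Gnal was 6.15 without library 5. Rgs8 had 0 UMIs in endothelial cells and was at least 8.18-fold higher in neurons.

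Endothelial cells had γ and RGS genes of their own. Gng11 was at 858, 576, 395, 670 and 443 CPM (−9.99 ± 0.25, edgeR adjusted p = 4.33e-17), above all libraries of satellite glia. Gngt2, a γ subunit first described in cone photoreceptors, was at 85.8, 122, 99.7, 94.3 and 166 CPM (−9.03 ± 0.29, edgeR adjusted p = 1.50e-15), and no other type exceeded 2.04 CPM. Rgs16 was at 120, 321, 236, 149 and 194 CPM (−6.96 ± 0.29, edgeR adjusted p = 8.64e-14), and Gng5 at 768 ± 60.7 CPM (−2.37 ± 0.14, edgeR adjusted p = 1.13e-11).

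Rgs5 in the endothelial sums was at 257, 106, 66.5, 59.6 and 73.9 CPM, with library 1, of 3 cells, far above the rest. The 6 mural cell markers, all with a UMI in this type, summed to 84.4 to 515 CPM over libraries and were highest in library 1, where Kcnj8 alone was at 309 CPM. Their part in the Rgs5 level was not tested.

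**Figure D4:**
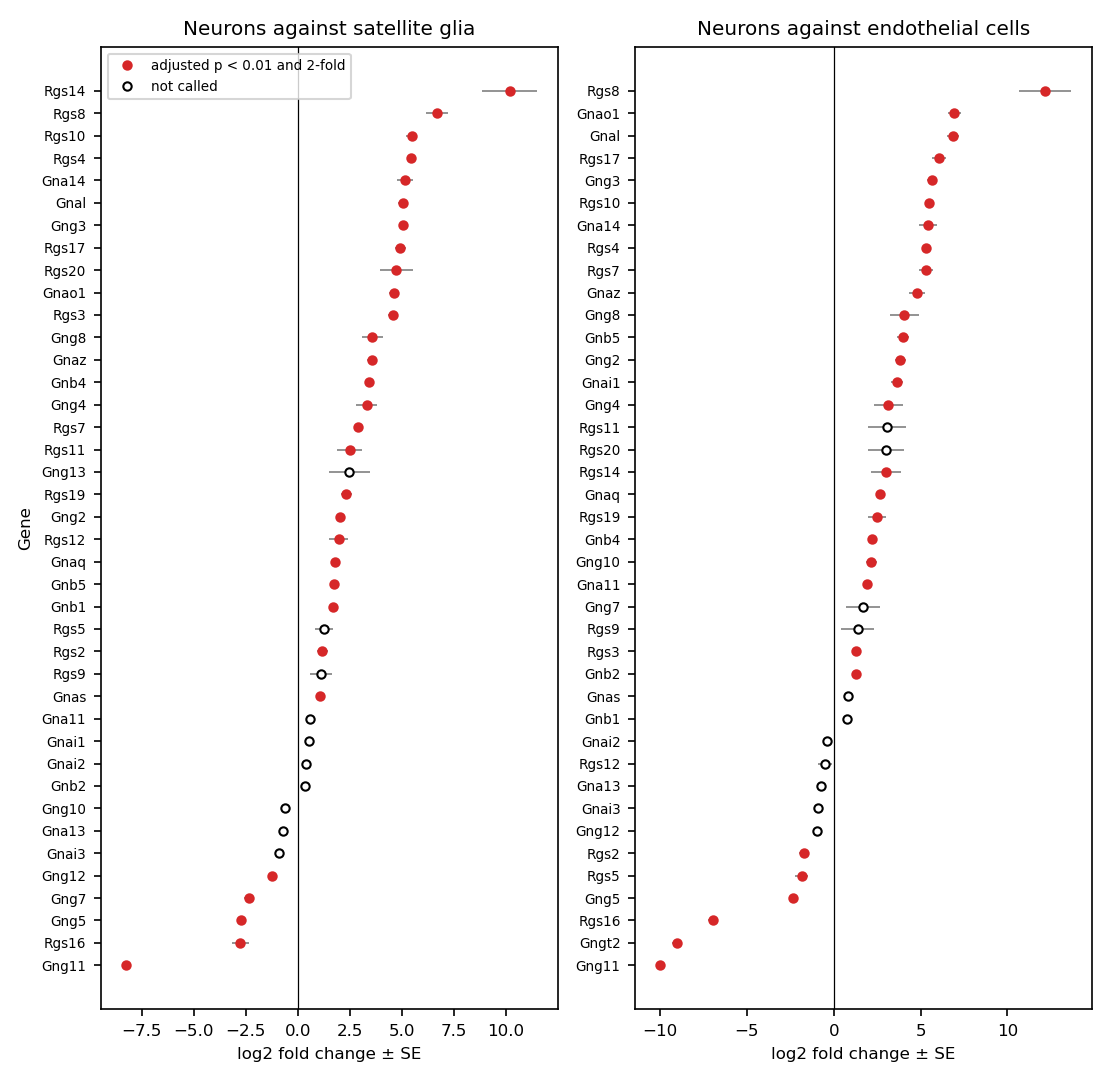
Log2 fold change ± SE of the 40 tested members in neurons against satellite glia (left) and against endothelial cells (right), with red points for called members. The left plot holds 25 called members right of 0 and 5 left of it, and the right plot 23 and 6. Rgs14 at the left and Rgs8 at the right had 0 UMIs in the non-neuronal type, so their points depend on the fit and are no bounds.

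Some members lie side by side in the genome and were compared as pairs. On chromosome 1, Rgs5 and Rgs4 are 45.7 kb apart and Rgs8 and Rgs16 42.7 kb, and on chromosome 19 Gnaq and Gna14 are 47.1 kb apart. Rgs9 and Gna13, of different classes, lie 64.6 kb apart on chromosome 11, Gna11 lies 4.28 kb from Gna15 and Gnai3 5.84 kb from Gnat2, and Gna15 and Gnat2 had 6 and 12 UMIs in all cells. Over the 12 neuron types, Pearson correlations of mean log2 levels were 0.90 for Gnaq and Gna14, 0.85 for Rgs9 and Gna13, 0.67 for Rgs4 and Rgs5 and 0.48 for Rgs8 and Rgs16, as descriptions over points that share libraries and depth. Gnaq, Rgs4 and Gna13 were found in every neuron type, while Gna14, Rgs5 and Rgs9 were close to 0 in several. Gnaq spanned a 5.37-fold range between its highest and lowest neuron type, while Gna14 went from 214 CPM in NP_Nts to 2 UMIs in NF2_Ntrk2.Necab2. In the pair of Rgs8 and Rgs16, both were low in most neuron types and both were called higher in PEP3_Trpm8. Types high in Rgs5 (Th, NP_Mrgpra3, NF2_Ntrk2.Necab2) were 3 of the 4 with the highest Rgs4, but NP_Mrgprd had 1456 CPM of Rgs4 and 0.467 CPM of Rgs5.

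**Figure D5:**
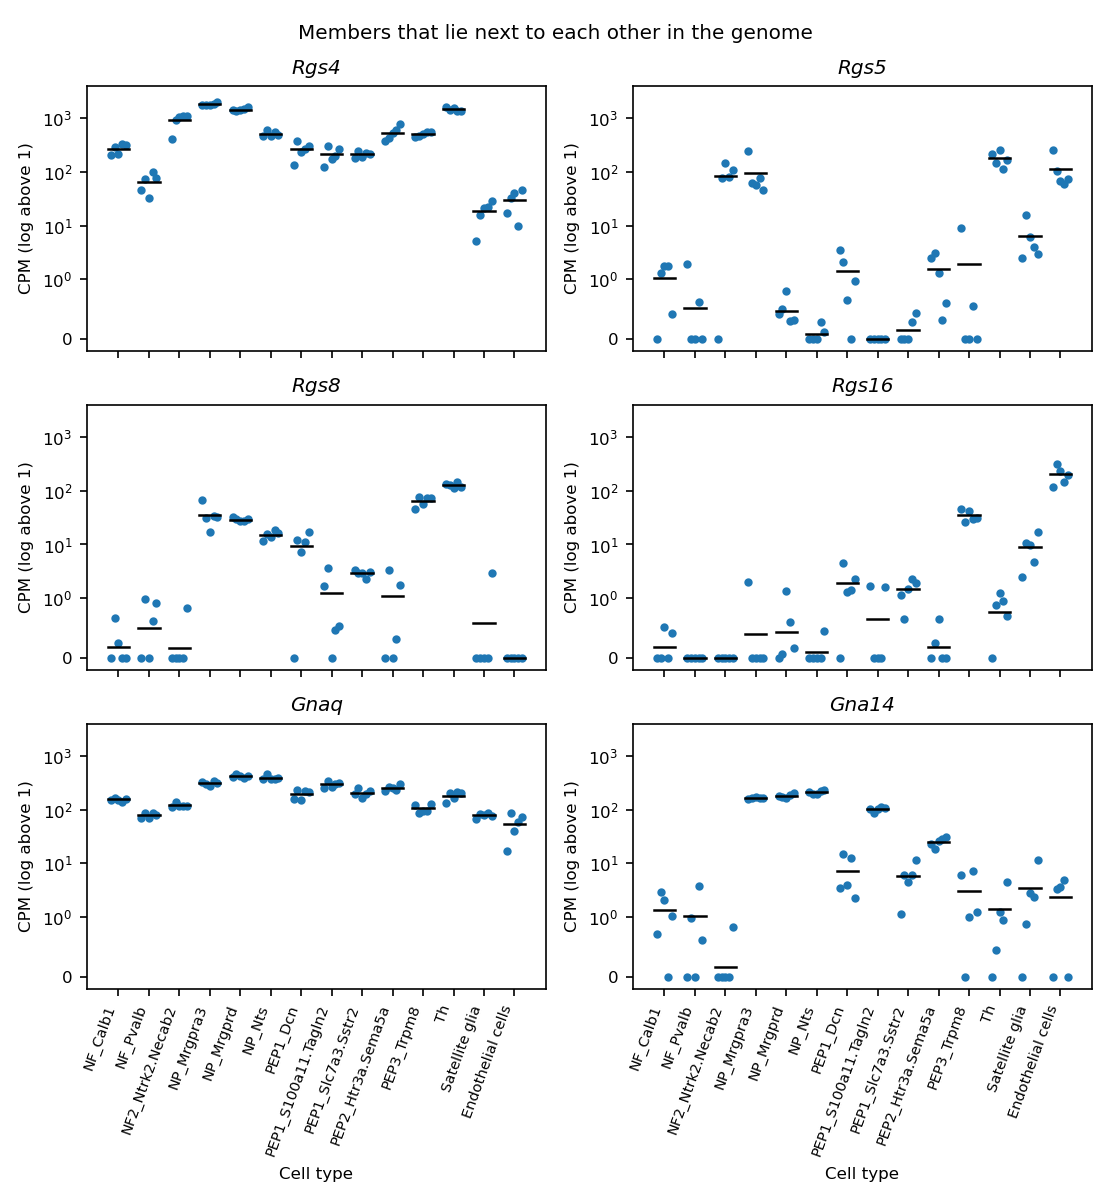
Level in CPM of 6 members that lie next to each other in the genome (rows of plots are the neighbours Rgs4 and Rgs5, Rgs8 and Rgs16, Gnaq and Gna14) in the 14 cell types, on an axis that is logarithmic above 1 and linear below. Points are the 5 libraries and bars their means. Gnaq stayed between 55.5 and 424 CPM in all types, whereas Gna14 fell from 214 CPM in NP_Nts to 0.167 CPM in NF2_Ntrk2.Necab2.

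The promoters of Rgs4 and Rgs5 and of Gnaq and Gna14, neighbours of the same class, are printed to show how they differ. Each is the stretch of 250 bases before the RefSeq start of the gene on GRCm38.p6 (mm10), 5′ to 3′ on the strand of the gene, with matches on either strand in capitals to the TATA box (TATAAA), the CCAAT box, the cyclic AMP response element (TGACGTCA) and the GC box (GGGCGG). Rgs4 lies at chr1:169747643-169747892 on the minus strand, Rgs5 at chr1:169655251-169655500, Gnaq at chr19:16132434-16132683 and Gna14 at chr19:16435417-16435666, the last 3 on the plus strand.
Rgs4: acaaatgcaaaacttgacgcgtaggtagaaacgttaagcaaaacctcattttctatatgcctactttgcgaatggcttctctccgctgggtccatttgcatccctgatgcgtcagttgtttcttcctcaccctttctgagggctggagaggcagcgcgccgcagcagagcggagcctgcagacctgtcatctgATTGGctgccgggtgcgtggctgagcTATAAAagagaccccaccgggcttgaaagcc
Rgs5: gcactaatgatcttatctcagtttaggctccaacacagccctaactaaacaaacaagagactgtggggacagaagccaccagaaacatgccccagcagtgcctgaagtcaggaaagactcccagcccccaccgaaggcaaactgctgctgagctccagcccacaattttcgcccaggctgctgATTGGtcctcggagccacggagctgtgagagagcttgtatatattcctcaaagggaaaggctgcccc
Gnaq: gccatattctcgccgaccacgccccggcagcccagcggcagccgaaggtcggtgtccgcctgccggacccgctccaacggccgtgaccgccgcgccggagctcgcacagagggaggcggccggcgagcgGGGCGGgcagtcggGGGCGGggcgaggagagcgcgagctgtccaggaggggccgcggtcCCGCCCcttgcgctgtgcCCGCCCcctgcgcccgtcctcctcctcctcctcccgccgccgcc
Gna14: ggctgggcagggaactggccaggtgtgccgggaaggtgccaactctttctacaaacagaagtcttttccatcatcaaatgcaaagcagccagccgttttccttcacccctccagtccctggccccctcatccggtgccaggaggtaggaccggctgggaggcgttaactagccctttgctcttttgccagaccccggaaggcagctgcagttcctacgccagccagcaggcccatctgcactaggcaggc
The Gnaq stretch holds 37 CG dinucleotides and 4 matches to GGGCGG or its reverse CCGCCC, at 79.2% G and C, while that of Gna14 holds 7 CG and no match. The Rgs4 stretch holds 13 CG, a match to TATAAA and an ATTGG (the reverse of CCAAT), and that of Rgs5 holds 4 CG and an ATTGG, both at 53.6% G and C. Among 32851 RefSeq promoters of this length the median was 6 CG, and GGGCGG was found in 32.7%, CCAAT in 33.8%, TATAAA in 12.4% and TGACGTCA in 1.55%, on either strand. A match describes these letters and not a bound factor.

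Across the 12 neuron types, members also rose and fell with others that are not their neighbours. As descriptions over 12 types that share libraries, the correlation of mean log2 levels was 0.95 for Gna11 and Gnb2, 0.93 for Gnb4 and Gng10, 0.92 for Gnai2 and Gnai3 and 0.92 for Gnao1 and Gnaq. It was 0.84 for Rgs4 and Rgs10, and 0.86 for Rgs9 and the γ gene Gng13. It was −0.24 for Rgs7 and Gnb5, although their proteins bind each other.

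Proteins that load, bind or receive the signal of G proteins were taken as a list of 35 genes, of which 30 were in the matrix and 25 tested. Over the neuron types 21 of the 25 were called, a share close to the 80.4% of all genes, and their median range was 2.26 on the log2 scale. Against satellite glia 12 were higher and 5 lower in neurons, against 32.6% and 21.6% of all genes. Against endothelial cells 11 were higher and 3 lower, shares close to the 43.9% and 14.9% of all genes. Rgs7bp, which anchors R7 proteins at the membrane, ran from 115 CPM (PEP3_Trpm8) to 757 CPM (NF2_Ntrk2.Necab2). Gpr158, a receptor that binds R7 proteins, was at 138 CPM in NF_Calb1, 135 CPM in PEP2_Htr3a.Sema5a, 99.7 CPM in NF2_Ntrk2.Necab2 and 93.6 CPM in NF_Pvalb, and at 22.3 CPM or less in the other neuron types. Plcb3, a phospholipase C that Gq activates, was at 103 to 135 CPM in the 3 NP types, in which Gna14 was highest, and at 1.30 CPM in Th. It was also at 79.5 CPM in PEP1_S100a11.Tagln2, 47.6 CPM in PEP1_Dcn, 44.5 CPM in PEP2_Htr3a.Sema5a and 44.1 CPM in PEP1_Slc7a3.Sstr2. Gna14 took only 0.175% of α UMIs in PEP1_Dcn and 0.142% in PEP1_Slc7a3.Sstr2. Plcb1 and Plcb4, of the same family as Plcb3, were low in the NP types, at 1.04 to 2.38 and 1.66 to 2.46 CPM. Their highest neuron levels were 51.9 CPM in PEP2_Htr3a.Sema5a and 8.87 CPM in NF_Pvalb. Arrb1, an arrestin that binds active receptors, ranged from 6.66 CPM in NF_Pvalb to 206 CPM in PEP2_Htr3a.Sema5a.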

How the data were processed

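Lumbar DRG cells of 5 mice were profiled with the Chromium 3′ assay. The deposited values are raw UMI counts per gene and cell, made by the authors with Cell Ranger 2.0.0 on mm10, and the authors assigned the cell types with Seurat 3.0.1 (500 to 15000 genes and at most 10% mitochondrial UMIs per cell, 15 principal components, resolution 0.6). In the deposited counts 188 cells exceeded that mitochondrial limit. No doublet caller was run here; the authors loaded few cells per lane to limit doublets. The annotation writes NF_Calb1 as NF_Ca1b1.

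Counts were summed per type and library after leaving out 4 rows that were not mouse genes (6.37e-05% of UMIs). Sums were compared with edgeR 4.0.16 (quasi-likelihood test, TMM, filterByExpr) in R 4.3.3 and, as an alternative, DESeq2 1.42.0, with Benjamini-Hochberg adjustment over all genes tested, and a call needed an adjusted p under 0.01 and 2-fold. P-values set a difference against the spread between the 5 libraries. For comparisons among neuron types, this spread was estimated from the sums of all neuron types together, not from the libraries of the named type alone. The main fits had no term for library, so sums that share a mouse were treated as independent. Each type was compared with the mean of the other 11 on the log2 scale. Other values used Python 3.11.15 with pandas 2.3.3, numpy 2.4.6 and scipy 1.17.1. Steps were tested on simulated counts.

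All types of a library come from 1 mouse. Deviations from the type means of the same library in different types correlated with a median r of 0.12 (−0.033 to 0.451 over 330 pairs), against −0.033 between different libraries (1320 pairs), and a fit with library as a block was run as an alternative. Others were no filter, cells of at most 10% mitochondrial UMIs, sums of at least 10 cells and leaving out each library. The members, the lists and the tests were chosen with earlier results of these data known. By rule, SE and adjusted p were given for the 2 highest and the 1 lowest called members by fold change in each neuron type, and for the 4 highest and 4 lowest against each non-neuronal type, with the same direction in 5 of 5 libraries. All other members may be named, with levels, shares or fold changes.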

Additional observations from a re-analysis of the deposited data

Results flagged for a closer look

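For the members given with full statistics, 61 groups of 5 libraries were searched for a library far from the rest, by the gap to its nearest neighbour as a share of the whole range, with a limit of 0.71. Chance passes about 1 in 20 groups of normal values, a rate that does not hold for counts near 0. In this search 8 groups passed, and that number cannot be set against the rate. In 4 of these groups a gene had UMIs in 1 library alone, which gives a gap of 1 whatever the count: Rgs8 in satellite glia, Gna14 in NF2_Ntrk2.Necab2, Rgs9 in NP_Mrgpra3 and Rgs9 in Th. Rgs5 in NP_Mrgpra3 had a gap of 0.840, with 241 CPM in library 1 (4 cells) and 77.7 CPM in the next. Gng4 in NP_Mrgprd had a gap of 0.778, with 1.2 CPM in library 3 against 0.501 CPM. Rgs11 in NP_Nts had a gap of 0.766, with 0.474 CPM against 0.111 CPM and 0 in the other libraries. Rgs14 in PEP1_Slc7a3.Sstr2 had a gap of 0.715, with 21.6 CPM in library 3 against 14.1 CPM.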

How the results depend on the processing

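The number of members called stayed within 1.5 times its value under each of the 150 alternatives run over the 15 comparisons. With library as a replicate block, 31 of 40 members were called against satellite glia, 32 of 40 against endothelial cells and 38 of 41 over the neuron types. Over all genes, that fit called 6520 of 12109, 6857 of 11683 and 9357 of 11561 in the same order. No named fold change lost its call in it. Of 520 values of the 52 named fold changes under alternatives, 510 kept their direction and call, 10 kept their direction and lost the call when 1 library was left out, and 0 reversed. These 10 belonged to 6 fold changes, all of genes low in the type, with the values given beside each. The share of Gng3 among γ UMIs was 71.4% as a mean over single cells. With DESeq2 the fitted log2 fold changes of genes at or near 0 UMIs were smaller in size, at 4.65 for Rgs14 against satellite glia, 4.79 for Rgs8 against endothelial cells and −4.33 for Rgs5 in PEP1_S100a11.Tagln2. Depth limits the endothelial values most, since 56 cells gave 941065 UMIs and 3 UMIs there stand for 3.19 CPM.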
